A study of Mus musculus with 4 samples.

Results

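Phospho-CREB occupancy was examined at 10 genes that set the pace of the cell cycle in MC3T3-E1 cells, a mouse line of pre-osteoblasts. The genes were the D-type cyclins Ccnd1, Ccnd2 and Ccnd3, the S-phase cyclins Ccne1 and Ccna2, the CDK inhibitors Cdkn1a, Cdkn1b and Cdkn1c, the replication clamp Pcna, and Myc. They were chosen by name from 22225 annotated protein-coding genes. A bound region was counted for a gene if it lay inside it or if its centre was within 100 kb of one of its transcription start sites (TSS). That rule gave 69 of the 28335 bound regions found in all libraries together. The libraries were made by chromatin immunoprecipitation (ChIP) with an antibody against CREB phosphorylated at serine 133. Cells had received 100 nM forskolin for 1 h in 2 libraries, and the DMSO vehicle for 1 h in the other 2, with no other treatment or genotype named. The labels call them biological replicates of 1 cell line. An input library belonging to another series was not used here.

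CREB is a transcription factor that binds the cAMP response element (CRE), whose full palindrome or shorter core is found at many promoters. Forskolin activates adenylyl cyclase, the cAMP it makes activates protein kinase A, and that kinase phosphorylates CREB. Cyclins activate cyclin-dependent kinases (CDKs) that carry a cell out of G1 and through DNA replication, while CDK inhibitors hold those kinases back. Myc drives growth and entry into the cycle. The cyclin A and cyclin D1 promoters are textbook examples of CRE-containing cell-cycle promoters, and cAMP can slow or speed proliferation according to the cell type.

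The deposited lists held 25566 and 19371 peaks in forskolin replicates 1 and 2, and 14686 and 10180 peaks in vehicle replicates 1 and 2. Each region was classed by the libraries that had a peak in it. A forskolin-only region had a peak in both forskolin libraries and in neither vehicle library, a vehicle-only region was the reverse, and an all-library region had a peak in all 4. Each peak carried the authors' score, whose scale is not stated, so a score was turned into a percentile, its rank among the peaks of its own list. A longer list went with higher percentiles. Over all 8930 all-library regions the median percentile was 77.2 and 70.4 in forskolin replicates 1 and 2, and 67.3 and 55.1 in vehicle replicates 1 and 2. A forskolin percentile above a vehicle one is to be read beside these medians. Low scores fell on multiples of a step, which was 0.239 and 0.688 in forskolin replicates 1 and 2, and 0.232 and 0.224 in vehicle replicates 1 and 2. If 1 step was 1 sequenced tag, which the authors do not state, a median peak held 62.0 and 21.1 tags in the forskolin libraries and 47.8 and 46.8 tags in the vehicle libraries. Scores given below are as deposited. Their sizes cannot be compared between libraries while the scale is unknown, and only ranks were compared. All 7 osteoblast marker genes had a bound region within 100 kb, and so had 10 of 12 markers of other cell types. The share over all protein-coding genes was 79.8%. At promoters, 2 of the 7 osteoblast markers and 1 of the 12 other markers had a region, against 44.5% of all protein-coding genes. Both of the osteoblast marker promoter regions, at Runx2 and Alpl, were called in both forskolin libraries and neither vehicle library, as were promoter regions of 3.11% of all genes. A phospho-CREB peak is not a measure of expression, so these lists do not tell the cell type.

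The sequences under the promoter regions show where CRE letters sat in the genes that the results turn on. Capitals mark the full CRE TGACGTCA, its core TGACG or the reverse complement CGTCA, and the AP-1 site TGAGTCA or its reverse complement TGACTCA. Every full CRE also contains a core. Sequences are from mm9, on the strand of the gene named, 5′ to 3′. The first set gives 30 bases around a motif in the promoter regions of Ccna2, Pcna, Ccnd3, Cdkn1b, Ccne1 and Ccnd1, with its distance from the nearest annotated start of the gene. Several of the genes, among them Ccna2 and Pcna, have more than 1 annotated start, and all distances here are to the nearest one.
Ccna2 (chr3:36470955-36470984, minus strand, motif at -87 bp from the TSS): ggcgcttctggTGACGTCAcggactccgga
Pcna (chr2:132079097-132079126, minus strand, motif at -63 bp from the TSS): caaacttgggcggTGACGacagcctacgcg
Ccnd3 internal start (chr17:47730375-47730404, plus strand, motif at -28 bp from the TSS): ccttagaacgttgTGACGtaggagcattcc
Cdkn1b (chr6:134870427-134870456, plus strand, motif at 21 bp from the TSS): tcatcttcttcttCGTCAgcctcccttcca
Ccne1 (chr7:38892979-38893008, minus strand, motif at -442 bp from the TSS): ggagaccggcggaTGACGggttcttaactc
Ccnd1 (chr7:152125641-152125670, minus strand, motif at 117 bp from the TSS): gcgaggcagcgcgCGTCAgcagccgccacc

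The second set gives the middle 201 bases of 5 regions away from the promoters. The Myc and Cdkn1b sequences named forskolin-only are the 2 highest-ranked forskolin-only regions of the 10 genes. Apart from the Ccna2 promoter region, only the other Myc sequence holds a full CRE within 100 bp of the centre of a region. The Cdkn1a and Ccnd3 sequences lie in introns of those genes.
Myc forskolin-only (chr15:61849558-61849758, plus strand): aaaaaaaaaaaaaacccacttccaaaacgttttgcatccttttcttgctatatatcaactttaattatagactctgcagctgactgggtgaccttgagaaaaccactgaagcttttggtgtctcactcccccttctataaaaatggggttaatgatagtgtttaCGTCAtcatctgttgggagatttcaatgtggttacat
Myc all-library (chr15:61869454-61869654, plus strand): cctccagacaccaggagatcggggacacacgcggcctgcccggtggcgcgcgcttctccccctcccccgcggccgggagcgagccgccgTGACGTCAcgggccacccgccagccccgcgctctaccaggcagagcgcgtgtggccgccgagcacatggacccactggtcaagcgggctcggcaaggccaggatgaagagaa
Cdkn1b forskolin-only (chr6:134944181-134944381, plus strand): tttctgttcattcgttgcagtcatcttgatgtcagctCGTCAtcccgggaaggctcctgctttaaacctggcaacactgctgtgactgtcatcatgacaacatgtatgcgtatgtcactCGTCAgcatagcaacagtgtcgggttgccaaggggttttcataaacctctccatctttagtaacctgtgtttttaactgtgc
Cdkn1a intron (chr17:29232299-29232499, plus strand): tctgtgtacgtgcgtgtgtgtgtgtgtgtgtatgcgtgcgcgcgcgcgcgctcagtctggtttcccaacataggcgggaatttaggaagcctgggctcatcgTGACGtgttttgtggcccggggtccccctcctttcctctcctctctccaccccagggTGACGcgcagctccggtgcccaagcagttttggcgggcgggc
Ccnd3 intron (chr17:47648090-47648290, plus strand): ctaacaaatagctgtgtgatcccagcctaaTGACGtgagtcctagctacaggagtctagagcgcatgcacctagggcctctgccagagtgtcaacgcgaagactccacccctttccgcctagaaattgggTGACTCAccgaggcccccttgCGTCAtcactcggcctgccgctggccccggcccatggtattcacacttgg

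Of the 69 regions, 10 were forskolin-only, 32 were all-library, none was vehicle-only and 27 had another pattern. Forskolin-only regions made up 14.5% of the 69, against 18.3% of all 28335 regions, and all-library regions 46.4%, against 31.5%. Vehicle-only regions were 0.441% of all 28335. Forskolin-only regions lay near 7 of the 10 genes, Ccnd1, Ccnd2, Ccnd3, Ccne1, Ccna2, Cdkn1b and Myc, which compares with 40.1% of all protein-coding genes. All 10 had a region of some class, as had 79.8% of all genes, and their median of 7 regions each stood against 4 for all genes. A vehicle-only region lay within 100 kb of 2.09% of all genes and of none of the 10. No region of Cdkn1a, Cdkn1c or Pcna was forskolin-only. With forskolin replicate 1 left out the forskolin-only count was 16, with forskolin replicate 2 left out it was 20, and with vehicle replicate 1 left out it was 17, since the class then needs fewer libraries.

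Peaks were called in 63 and 55 of the 69 regions in the forskolin libraries and in 43 and 35 in the vehicle libraries. Both forskolin libraries lay above both vehicle libraries, with means of 59 ± 5.66 and 39 ± 5.66 regions (SD, n = 2 libraries each). The difference of 20 regions gave p = 0.333 in a two-sided exact permutation test, the smallest p that 2 against 2 libraries allow. List lengths moved the same way. The forskolin libraries had a peak in 90.2% and 68.4% of all 28335 regions and the vehicle libraries in 51.8% and 35.9%, while at the 10 genes these shares were 91.3% and 79.7% with forskolin and 62.3% and 50.7% with vehicle. With the 10180 highest peaks of each list, the calls were 32 and 33 in the forskolin libraries and 33 and 35 in the vehicle libraries, a difference of -1.5. The shortened lists left 41 regions at the 10 genes, of 15455 in all. Of the 41, 3 were forskolin-only (7.32%, against 10.0% of all), 1 at Cdkn1b and 2 at Myc. Another 3 were vehicle-only (7.32%, against 6.88% of all), 2 at Ccnd1 and 1 at Ccna2. In the full lists, the Ccna2 region and the Ccnd1 region at Oraov1 were all-library. The other Ccnd1 region had a peak in forskolin replicate 1. Their forskolin peaks were lost when the lists were shortened. Of the 27 regions of other patterns, 10 were called in forskolin replicate 1 alone, 6 in forskolin replicate 2 alone and none in a vehicle library alone. The share of such regions among all 28335 was not taken. The forskolin lists were the longer ones, and without that share these counts cannot tell the 10 genes from other genes.

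**Figure D1:**
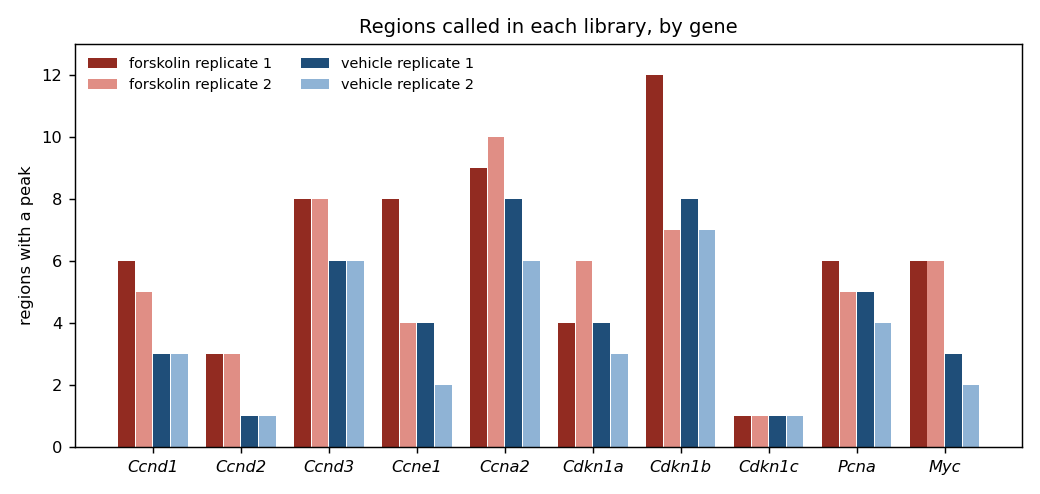
Number of bound regions with a called peak in each library, per gene, forskolin libraries left of vehicle libraries. Ccnd3 had 8 and 8 regions called with forskolin against 6 and 6 with vehicle, Myc had 6 and 6 against 3 and 2, and Cdkn1c had 1 in all 4 libraries.

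**Figure D2:**
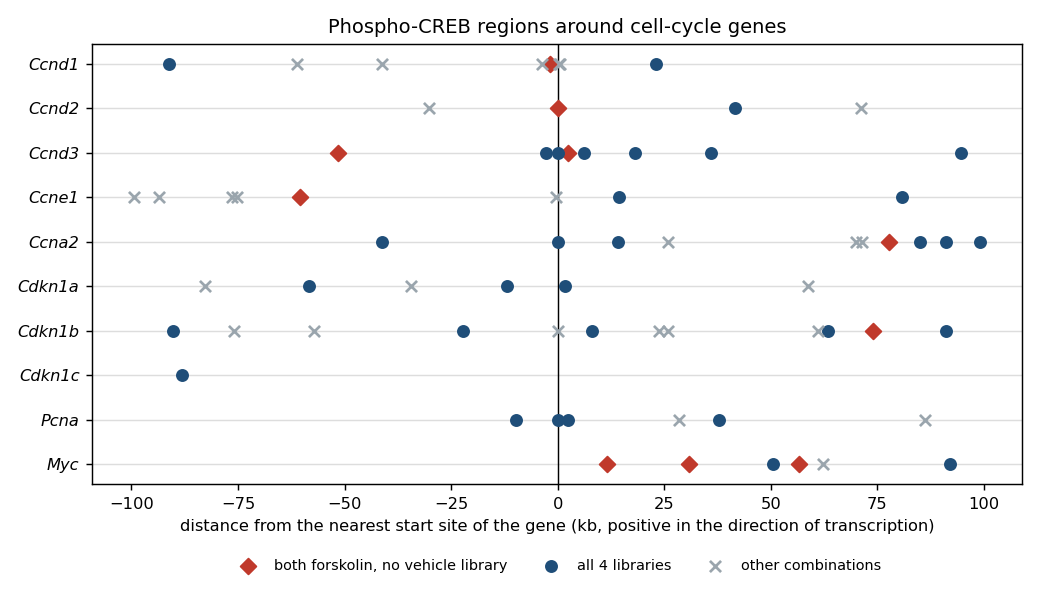
Position of the 69 regions relative to the nearest TSS of each gene, in kb, with the class of each region marked. Regions of all 4 libraries lay at the TSS of Ccna2, Pcna and the internal start of Ccnd3, and 3 forskolin-only regions lay downstream of Myc.

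The promoters, taken as 1 kb to either side of a TSS, carried a bound region of some kind in 7 of the 10 genes, against 44.5% of all protein-coding genes. An all-library promoter region was found at Ccna2, Pcna and Ccnd3, 3 of 10 genes against 30.4% of all genes. Ccnd2 alone had a forskolin-only promoter region, a class found at 3.11% of all genes, while vehicle-only promoter regions were found at 0.247% of all genes and at none of the 10. Cdkn1a, Cdkn1c and Myc had no promoter region in any library. Myc and Cdkn1c had no region within 10 kb of a TSS, as was the case for 44.8% of all genes.

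The D-type cyclins bind CDK4 and CDK6 and connect growth signals with the exit from G1. Ccnd1 (chr7:152115836-152125774, minus strand) had 8 regions, of which 1 was forskolin-only and 2 were all-library. Its forskolin-only region (chr7:152127394-152127802) was intergenic, 1.8 kb upstream of the TSS, at percentile 52.3 in forskolin replicate 1 and 22.2 in forskolin replicate 2. Regions 0.2 kb and 0.5 kb past a start, the first in an exon with the CRE core shown above, were called in forskolin replicate 2 alone, at percentiles 8.5 and 27.2. That core lay 117 bp past the TSS, outside the window from 250 bp before to 50 bp after it. Another core was found in such a window of Ccnd1 and is not shown. A region 3.6 kb upstream (chr7:152129251-152129567) went the other way: it ranked at percentile 45.5 in forskolin replicate 1, had no peak in forskolin replicate 2, and ranked at 64.4 and 55.1 in the vehicle libraries. The all-library regions were more distant, 1 at 91.2 kb upstream of the TSS and 1 at the promoter of the neighbouring gene Oraov1.

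Ccnd2 (chr6:127075797-127101066, minus strand) had 4 regions. The forskolin-only region at its promoter (chr6:127100804-127101121) was centred 0.1 kb inside the first exon and also lay in the noncoding gene 9330179D12Rik. It ranked at percentile 55.9 and 40.3 in the forskolin libraries and had no peak in either vehicle library. In lists of equal length it was no longer forskolin-only. No CRE core or AP-1 letters were found within 100 bp of its centre. The window from 250 bp before to 50 bp after the Ccnd2 TSS did hold a core. The only all-library region of Ccnd2 lay 41.5 kb downstream of its TSS, nearest to 9630033F20Rik, and ranked at 77.9 and 62.4 with forskolin and 63.5 and 52.2 with vehicle. Among all-library regions only, its ranks were 51.3 and 39.1 with forskolin and 44.3 and 47.6 with vehicle, which overlapped.

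Ccnd3 (chr17:47642000-47736632, plus strand) had 8 regions, all of them called in both forskolin libraries, and 6 of them in both vehicle libraries. The promoter region (chr17:47730053-47730712) lay at an internal start of a shorter transcript, inside an intron of the longer one, with a core 28 bp upstream of that start. Its percentiles were 76.1 and 44.1 with forskolin and 68.2 and 31.8 with vehicle, so that the groups overlapped. The spread between libraries was 22.6 percentile points with forskolin and 25.7 with vehicle (SD, n = 2), larger than the difference of their means, 10.0 points, which had p = 0.667 in the exact permutation test. That difference became -4.95 when ranks were taken among all-library regions only, -5.95 without forskolin replicate 1 and -8.12 without vehicle replicate 2. A forskolin-only region (chr17:47732612-47732950) lay in an intron 2.4 kb past the internal start, at percentiles 52.3 and 53.3 in the forskolin libraries, with a CRE core. A second forskolin-only region, 51.6 kb upstream of the gene in an intron of AI661453, ranked lower, at 34.8 and 5.3. The intronic all-library region 6.2 kb past the first TSS, with 2 cores and an AP-1 site in the sequence above, ranked at 89.1 and 91.2 with forskolin and at 84.1 and 72.7 with vehicle. Among all-library regions only, its ranks were 73.9 and 82.6 with forskolin and 74.4 and 69.6 with vehicle, which overlapped.

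Among 6744 genes with an all-library promoter region, those whose 4 promoter percentiles lay nearest to those of Ccnd3 were Psma7 and Ss18l1, which share 1 region at a distance of 6.33 percentile points, and Magi2 at 6.56. The highest-ranked region near any of the 10 genes was also counted for Ccnd3, but lay at the promoter of its neighbour Bysl (chr17:47748312-47748634). It stood at 99.3 and 99.4 with forskolin and at 98.9 and 98.8 with vehicle, and among all-library regions only the groups overlapped, with a difference of -0.1 points.

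Cyclin E1 activates CDK2 at the start of S phase. Ccne1 (chr7:38883003-38892553, minus strand) had 8 regions, and its promoter region (chr7:38892821-38893180) was centred 0.4 kb upstream of the TSS. It had percentiles of 41.6 and 12.4 in the forskolin libraries and of 3.5 in vehicle replicate 1, with no peak in vehicle replicate 2. The forskolin-only region of Ccne1 (chr7:38952833-38953143) lay 60.4 kb upstream in intergenic DNA, at percentiles 34.8 and 53.3, and held 2 CRE cores. An all-library region in an intron of C80913, 80.8 kb downstream of the Ccne1 TSS, ranked at 88.4 and 87.6 with forskolin and at 76.5 and 67.3 with vehicle. Among all-library regions only, its ranks were 72.2 and 76.4 with forskolin and 62.8 and 63.8 with vehicle.

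Cyclin A2 works with CDK2 in S phase and with CDK1 later in the cycle. The Ccna2 promoter region (chr3:36470816-36471144; gene at chr3:36463788-36471072, minus strand) held a full CRE 87 bp upstream of an inner start. No other of the 10 genes had a full CRE from 250 bp before to 50 bp after a TSS, and promoters were not searched further out. Its scores were 137 and 76.4 in the forskolin libraries and 63.1 and 32.5 in the vehicle libraries. As percentiles these were 98.5 and 96.7 with forskolin and 97.5 and 91.9 with vehicle, so the groups overlapped, with means of 97.6 ± 1.32 and 94.7 ± 3.95 (SD, n = 2). The difference of 2.92 percentile points gave p = 0.667 in the exact permutation test and was 0.131 without vehicle replicate 2. Ranked among all-library regions only, the difference was 1.26. Of 10 regions near Ccna2, 6 were all-library. They included regions at the promoters of Exosc9, Bbs7 and Anxa5. The forskolin-only region lay 77.8 kb downstream, nearest to 1810062G17Rik, at percentiles 44.6 and 12.4.

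Among the CDK inhibitors, Cdkn1a encodes an inhibitor induced by p53, Cdkn1b one that holds back cyclin E with CDK2 in quiescent cells, and Cdkn1c an imprinted inhibitor active in embryonic tissues. Cdkn1a (chr17:29227924-29237667, plus strand) had 6 regions. The nearest was an all-library region in one of its introns, 1.7 kb past a TSS (chr17:29232220-29232579), with 2 CRE cores. Its scores were 95.2 and 66.1 with forskolin and 32.7 and 28.5 with vehicle, at percentiles 96.6 and 95.5 with forskolin and 91.1 and 89.8 with vehicle. Both forskolin values exceeded both vehicle values, also when only all-library regions were ranked, where the difference was 4.1 percentile points. The remaining all-library regions were at the promoter of Srsf3 and 12.0 kb upstream of Cdkn1a. The one 12.0 kb upstream was centred at -2 bp from a start of the noncoding gene Gm16197. That last region ranked at 68.1 and 74.2 with forskolin and at 79.4 and 31.8 with vehicle, so that the vehicle libraries stood on both sides of the forskolin ones.

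Cdkn1b (chr6:134870419-134875531, plus strand) had the most regions, 12. The promoter region (chr6:134870317-134870726), centred in an exon 0.1 kb past the TSS and with a CRE core, ranked at 77.9 in forskolin replicate 1, was not called in forskolin replicate 2, and ranked at 64.4 and 34.4 in the vehicle libraries. The forskolin-only region 73.9 kb downstream (chr6:134944126-134944436), nearest to Apold1, ranked highest of the 10, with scores of 55.6 and 41.3 and percentiles of 91.4 and 89.2 in the forskolin libraries. It was also forskolin-only in lists of equal length. An intergenic all-library region 8.1 kb past the TSS stood at 90.8 and 86.8 with forskolin and at 85.8 and 80.1 with vehicle. Among all-library regions only, the ranks were 77.6 and 75.1 with forskolin and 77.2 and 77.7 with vehicle, so that the groups overlapped and the difference was -1.1 points. More distant all-library regions lay nearest to Crebl2, Gpr19, Apold1 and Ddx47.

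Cdkn1c (chr7:150644255-150646955, minus strand) had 1 region, 88.2 kb upstream at the promoter of Nap1l4. It ranked at 90.9 and 88.2 with forskolin and at 84.6 and 72.1 with vehicle, and no forskolin value overlapped a vehicle value. Among all-library regions only, its ranks were 77.9 and 77.6 with forskolin and 75.3 and 68.9 with vehicle, a difference of 5.7 points.

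Pcna forms the sliding clamp that holds DNA polymerase on its template. Its promoter region (chr2:132078859-132079246; gene at chr2:132074898-132079050, minus strand) had a CRE core 63 bp upstream of the outer start. The scores were 106.9 and 77.1 with forskolin and 37.1 and 37.7 with vehicle, and the percentiles 97.3 and 96.8 with forskolin and 92.7 and 93.9 with vehicle. The groups did not overlap, with means of 97.0 ± 0.413 and 93.3 ± 0.839 (SD, n = 2). The difference of 3.77 percentile points gave p = 0.333, the smallest p of the exact permutation test. Ranked among all-library regions only, the difference was 2.56, with an exact permutation p of 0.667. The other all-library regions of Pcna were nearest to 5730494N06Rik and Cds2. One of them, 37.8 kb downstream, ranked at 82.9 and 62.4 with forskolin and at 71.9 and 0.2 with vehicle, so that its value rests on vehicle replicate 2.

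Myc (chr15:61816946-61821929, plus strand) had 6 regions, all of them downstream, and 4 of the 6 lay inside the noncoding gene Pvt1. The nearest was 11.6 kb from the TSS. Myc had 3 forskolin-only regions, a number reached by 6.51% of all genes. The region 11.6 kb away (chr15:61830463-61830774) ranked at 62.9 and 47.5 in the forskolin libraries. The region 30.7 kb away (chr15:61849501-61849816), with a CRE core, had scores of 33.4 and 31.0 and ranked at 81.5 and 82.9. The region 56.5 kb away (chr15:61875309-61875642), with an AP-1 site, ranked at 59.5 and 40.3. The first and second of these were also forskolin-only in lists of equal length, and the third was not. Between them, the all-library region 50.6 kb from Myc (chr15:61869390-61869718) held a full CRE beside a start site of Pvt1. Its scores were 84.0 and 59.9 with forskolin and 44.1 and 34.8 with vehicle, at percentiles 95.7 and 94.5 with forskolin and 94.8 and 92.9 with vehicle, where the groups overlapped. Ranked among all-library regions only, it stood at 88.9 and 89.0 with forskolin, below the 91.5 and 92.0 with vehicle. A second all-library region with an AP-1 site, 92.0 kb from Myc, stood at 73.0 and 27.2 with forskolin and at 45.1 and 29.4 with vehicle.

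Over the 10 forskolin-only regions the median percentile was 54.1 in forskolin replicate 1 and 43.9 in forskolin replicate 2, against 44.6 and 31.9 over all 5187 forskolin-only regions. Both forskolin percentiles exceeded 80 in 2 of the 10, at Cdkn1b and Myc, and in 309 of the 5187 (5.96%). Of the 10, 7 were intergenic, 2 intronic and 1 exonic, and the gene they were counted for was the nearest protein-coding gene in 6. Over all 69 regions it was the nearest in 28. Of the 32 all-library regions, 16 lay within 1 kb of a TSS of another gene. Placement and nearest gene were not counted over all regions, so these counts have no background beside them and describe these regions only.

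For the 32 all-library regions, ranks were also taken among all-library regions alone, so that each library ranked the same regions. The difference, forskolin minus vehicle, had a median of -1.08 percentile points and ran between -15.5 and 22.0, both ends near Pcna. Both forskolin ranks exceeded both vehicle ranks in 4 regions (12.5%), against 18.4% of all 8930 all-library regions, and both lay below in 10 regions (31.25%), against 31.3%. The 4 were those of Cdkn1a in its intron, of Cdkn1c at Nap1l4, of Ccne1 in C80913 and of Ccna2 at Bbs7. The Bbs7 region had the largest difference of the 4, 20.3 points. Of the 10 that lay below, 3 were near Cdkn1b, 2 near Ccnd3, 2 near Pcna and 1 each near Ccnd1, Ccna2 and Myc. Ranks within a list are relative, so these differences do not tell whether occupancy as a whole differed.

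**Figure D3:**
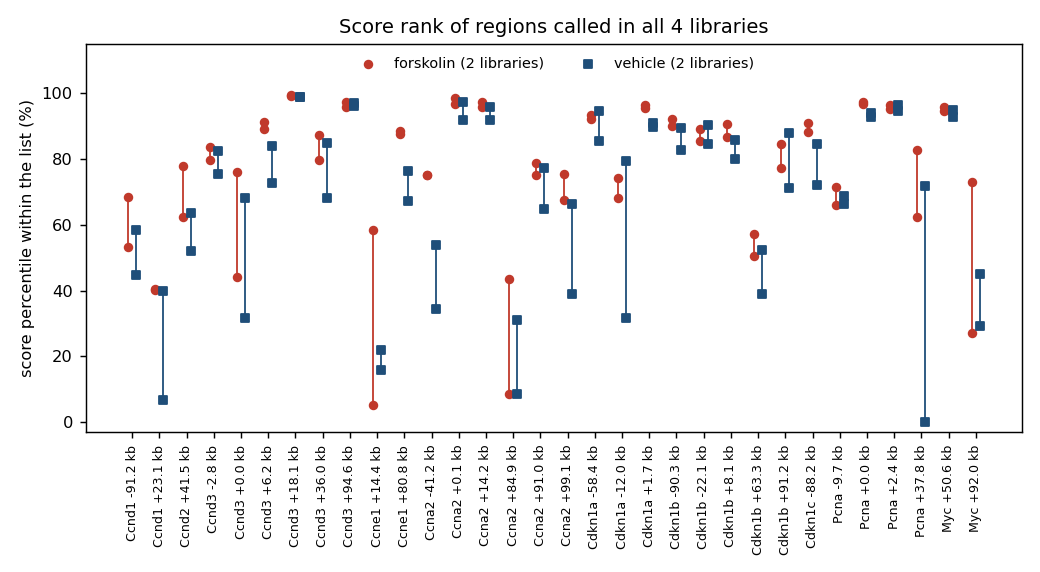
Score percentile within its own list of each of the 32 all-library regions, forskolin libraries as circles and vehicle libraries as squares, with a line joining the 2 libraries of a group. The Ccna2, Pcna and Cdkn1a regions nearest the TSS stood above 89 in all 4 libraries.

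**Figure D4:**
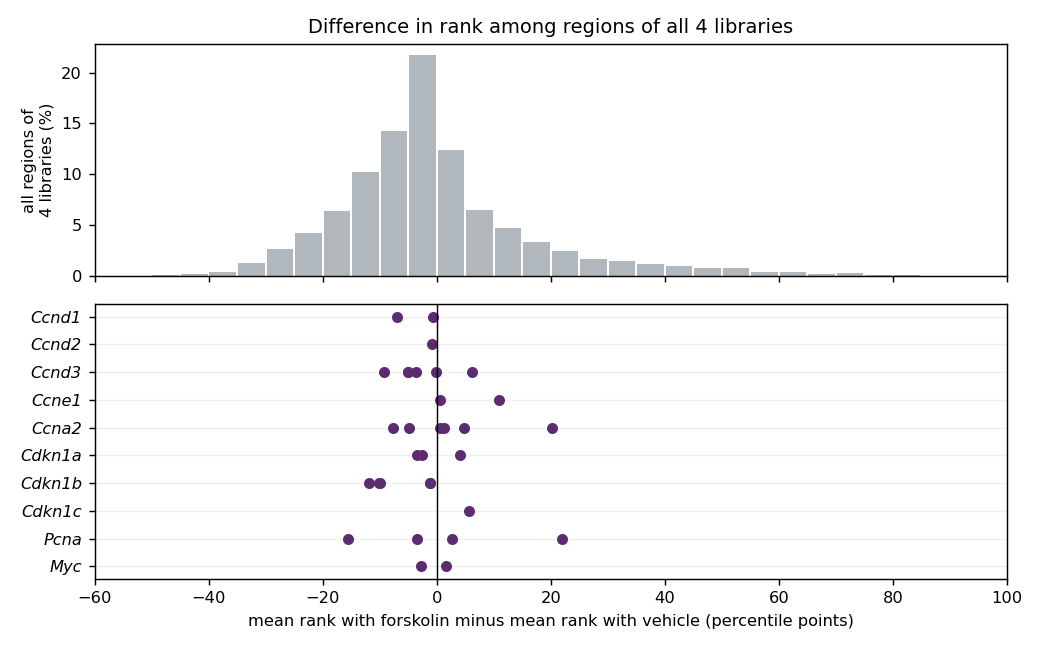
Difference in percentile, forskolin minus vehicle, when all-library regions alone are ranked, for the 32 regions near the 10 genes and for all 8930. The 32 regions had a median of -1.08 and all 8930 a median of -2.32.

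Within 100 bp of the region centres, the CRE core was present in 25 of 69 regions (36.2%), against 29.1% of all regions. The full CRE was present in 2 of 69 (2.90%), at Ccna2 and Myc, against 3.53%, and AP-1 in 8 of 69 (11.6%), against 13.8%. Of the 10 forskolin-only regions, 4 had a core, 1 had AP-1 and none had a full CRE. They were found in 38.6%, 21.8% and 3.59% of all forskolin-only regions. Of the 32 all-library regions, 15 had a core, against 39.3% of all such regions. In the windows from 250 bp before to 50 bp after each annotated TSS, 8 of the 10 genes had a core, all but Ccne1 and Cdkn1a, against 35.2% of all protein-coding genes. The 10 genes had between 1 and 6 annotated starts each. A gene with more starts had more windows searched, and the shares were not adjusted for this. A match gives the letters and not a bound site.

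Beyond the 10 genes, 61 further cell-cycle genes were counted by role. Of these, 39 (63.9%) had an all-library promoter region, against 3 of the 10 genes and 30.4% of all protein-coding genes. By role the counts were 11 of 13 replication genes, 10 of 14 kinases and phosphatases, 7 of 10 further cyclins, 4 of 5 turnover and p53 genes, 4 of 8 Myc network genes, 3 of 7 E2F and pocket proteins and none of 4 INK4 inhibitors. A forskolin-only region within 100 kb was found for 22 of the 61 (36.1%), close to the 40.1% of all genes. Leaving out forskolin replicate 1 made it 35, leaving out forskolin replicate 2 made it 47, and leaving out vehicle replicate 1 made it 40. Myc network genes had such a region in 7 of 8 cases and turnover and p53 genes in none of 5. Within 10 kb of a TSS, 6 of the 61 had one, against 3 of the 10 genes (Ccnd1, Ccnd2 and Ccnd3) and 8.88% of all genes. For Mxi1, which competes with Myc for Max, it ranked at 73.6 and 78.3 in the forskolin libraries, and for the mitotic kinase gene Aurkb at 77.7 and 74.2. For the helicase subunit gene Mcm3 the percentiles were 59.5 and 58.2, and for Ccng2, an unconventional cyclin gene, 53.01 and 27.2. Max, the partner of Myc, had one at 20.1 and 22.2, and Cdc25b, a phosphatase that activates CDKs, had 2 upstream of its TSS, 7.3 kb away at 20.1 and 40.3 and 6.6 kb away at 1.9 and 1.5.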

How the data were processed

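Bowtie, HOMER and build mm9 are named, without versions, per the submitters' processing notes. Settings of the peak calling were not given in the sources used here. Per library, the authors deposited 1 peak list with a position and a score per peak. Work here started from these lists. Because the scale of the score is not stated, scores were ranked within each list (share of lower scores, with tied scores at their mid-rank) and no count model was fitted. Duplicate reads and read depth could not be checked. Peaks sharing at least 1 bp were merged into regions. Genes and TSS came from GENCODE M1 on NCBIM37, the same build as mm9, over nuclear protein-coding genes, and all regions lay within its 21 chromosomes. Distances run to the nearest TSS of any transcript. Motifs were searched on both strands. Of the motif windows in the promoter regions, 1 is not reported here.

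The 10 genes, the further cell-cycle genes, the cell type markers and the tests were chosen with earlier results of these data known. All 10 genes are named with their promoter regions, all forskolin-only regions and regions with a full CRE; of the 61 further genes, the rule named those with a forskolin-only region less than 10 kb from a TSS, and those with a vehicle-only region or with no region are named beside their counts. Other regions described were chosen after their values were seen. Groups were taken from the sample titles. With 2 libraries a group, exact two-sided permutation tests cannot give a p below 0.333. Alternatives changed the merging rule, the list lengths, the windows, the ranking and the libraries used. Merging and classing were tested on simulated data. Python 3.11.15, numpy 2.4.6, scipy 1.17.1 and matplotlib 3.10.9 were used.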

Additional observations from a re-analysis of the deposited data

How the results depend on the processing

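The difference in called regions between forskolin and vehicle was 20. With lists of equal length it was -1.5, and it ran between 16 and 24 when 1 library was left out and kept its sign under the other alternatives run. With the replicate block it was 20 with an exact sign-flip p of 0.5, the smallest that 2 pairs allow, and the replicate block gave the same sign-flip p of 0.5 for the promoter percentiles of Ccna2, Pcna and Ccnd3. Same-numbered libraries deviated together with r = 0.133 over 8930 regions, but 2 pairs do not establish a pairing. The 10 forskolin-only regions became 3 with the top 50% of each list, 3 with equal lists, 3 in a 10 kb window and 5 in a 50 kb window, and ran between 10 and 20 when 1 library was left out. In the same order the 7 genes with such a region became 3, 2, 3 and 4, and 7 to 9 with 1 library left out. The 32 all-library regions became 21 with the top 50%, 9 within 10 kb and 19 within 50 kb, and ran between 32 and 39. The 3 genes with an all-library promoter region were 2 to 4 under all alternatives run, since Ccnd3 was lost with 50% overlap, the top 50% and equal lists. Among the 61 further genes, 22 became 7 with equal lists, 6 within 10 kb and 12 within 50 kb, and ran between 24 and 47. The median promoter difference of 3.77 percentile points ran between 0.131 and 5.71 with 1 library left out and was 1.26 among all-library regions; the top 50% gave no value for it. The Ccnd3 promoter difference was -4.95 among all-library regions and ran between -8.12 and 28.2 when 1 library was left out. The score step of forskolin replicate 2, with fewer tags a peak if 1 step was 1 tag, was the coarsest; its part in the results was not tested.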

Other observations

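Regions called in both vehicle libraries and in neither forskolin library were found near 2 of the 61 further cell-cycle genes, against 2.09% of all protein-coding genes. The Mxi1 one lay 0.4 kb from a TSS, at percentiles 14.4 and 15.9 in the vehicle libraries, so that Mxi1 had regions of both classes within 10 kb. The Wee1 one lay 99.5 kb away, at 19.3 and 21.2. No region was found within 100 kb of Cdkn2a, Cdkn2b or Mycn in any library. At the edge of the 100 kb window, an all-library region of Ccna2 at 99.1 kb ranked at 75.4 and 67.5 with forskolin and at 66.5 and 39.0 with vehicle. Just outside it, a forskolin-only region 105.9 kb from Cdkn1b ranked at 25.0 and 31.9 in the forskolin libraries.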
